A study of Arabidopsis thaliana with 60 samples.

Results

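The class III peroxidase family of Arabidopsis thaliana was followed across a panel of hormone inhibitors and other chemicals. A member was any of 60 listed class III peroxidase loci read by a probe set that the platform annotation assigns to exactly 1 gene. This held for 47 loci, among 13333 genes that have such a probe set. Of the rest, 7 loci were read only by 4 probe sets shared with another gene, and no probe set was listed for AT1G05240, AT1G05250, PER4, RHS18, PER64 and RHS19. Col-0 seedlings were 7 days old and grown at 23 °C, and their total RNA was hybridised to Affymetrix ATH1 arrays, with 2 arrays in each of 30 groups. The sample titles carry F1, F2 or G in brackets, a mark the labels do not explain, and each treated group was set against the mock of the same mark, called its bracket below. Nothing in the labels tells whether replicate arrays are separate cultures. The p-values set a difference between groups against the spread of arrays within groups, shared over all 30 groups. That spread may thus be technical.

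The compounds of bracket F1, all given for 3 h, were propiconazole, uniconazole, paclobutrazol, prohexadione, 2,4,6T, PCIB, TIBA, NPA, Brz220, Brz91, AgNO3, AVG, CHX, MG132, ibuprofen, daminozide and salicylic acid at 10 µM, and PNO8 at 1 µM. Bracket F2 held propiconazole, uniconazole, paclobutrazol, prohexadione, Brz220 and Brz91 at 10 µM and PNO8 at 1 µM, all for 12 h. Bracket G held Brz220 at 3 µM and PNO8 at 10 µM for 3 h. The mocks lasted 3 h in F1 and G and 12 h in F2, and the labels give no vehicle for them. As background, TIBA and NPA inhibit auxin transport, and PCIB and 2,4,6T are phenoxy acids used as auxin antagonists. Silver ions block ethylene perception and AVG ethylene synthesis, CHX stops translation and MG132 inhibits the proteasome. PNO8 is known here only by its code.

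Class III peroxidases are secreted plant enzymes with a heme group. In the cell wall they use hydrogen peroxide to join phenolic units, which builds lignin and cross-links extensins, structural proteins of the wall, and in another reaction cycle they produce reactive oxygen that loosens the wall. The family is large, and many of its genes are used in the root, among them a group expressed in root hairs, the tubular outgrowths of the root epidermis.

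The intensities, made by the authors with MAS5, were rescaled to a common 2% trimmed mean on each array. They were compared as log2(intensity + 125.6), a scale that understates the change of dim probe sets. A probe set was tested if it lay above the 40th percentile of its array on at least 2 arrays, as 17312 probe sets did. Differences below are on this log2 scale, as treated minus mock, with ± for the standard error and 2 arrays in each group. A call is a limma adjusted p under 0.05 (Benjamini-Hochberg, within a comparison over all probe sets tested). The 2 arrays of a group correlated at 0.9593 to 0.9814, and the ratio of the 3′ to the 5′ actin probe sets lay between 1.215 and 1.887, highest on F1 mock replicate 1. Of the markers of other root cells only PYK10 was among the probe sets with a gene name here, and it was not called in any treated group, while none of the 6 listed shoot markers was among them. In RNA of seedlings taken in bulk, fewer cells of a type and less RNA per cell cannot be told apart.

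Of the 47 members, 39 were tested and 8 were left out as dim: AT2G24800, AT3G03670, AT3G50990, AT4G16270, AT4G17690, AT4G25980, AT5G19880 and AT5G47000. Among those 8 are AT3G50990 (PER36), a peroxidase of seed mucilage release, and AT4G16270, known from the anther tapetum. Of the tested members 17 lay above the percentile on all 60 arrays, and 5 did so on 5 arrays or fewer: AT1G14550, AT1G24110, AT2G43480, AT5G05340 (PRX52) and AT5G06730. A gene that passed only through the group where it is bright had to differ there, so the counts below describe the 39 tested members and not the family.

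Over the 27 treated groups the tested members had 86 lower and 20 higher calls against mock, in 10 groups, and 17 groups had none. Lower calls were 81.1% of the members' calls, and 57.2% of the calls over all probe sets tested, which lean the same way. As shares of all tests, 8.17% for members and 2.49% for all probe sets were lower, and 1.9% and 1.86% were higher. At least 1 call was made for 31 of the 39 tested members. The share of all probe sets with at least 1 call was not counted. CHX alone called 33.6% of them lower and 18.2% higher, so the 31 are not read as a result about the family. Of the 31, 20 were only lower, 8 only higher, and AT3G01190, AT4G11290 and AT4G36430 were each higher with some compound and lower with another. The 8 members without a call were AT1G24110, AT1G49570, AT2G34060, AT2G35380, AT2G41480 (PRX25), AT2G43480, AT4G31760 and AT5G05340. Treated groups of a bracket share their mock, so counts of different groups are not independent of each other.

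**Figure D1:**
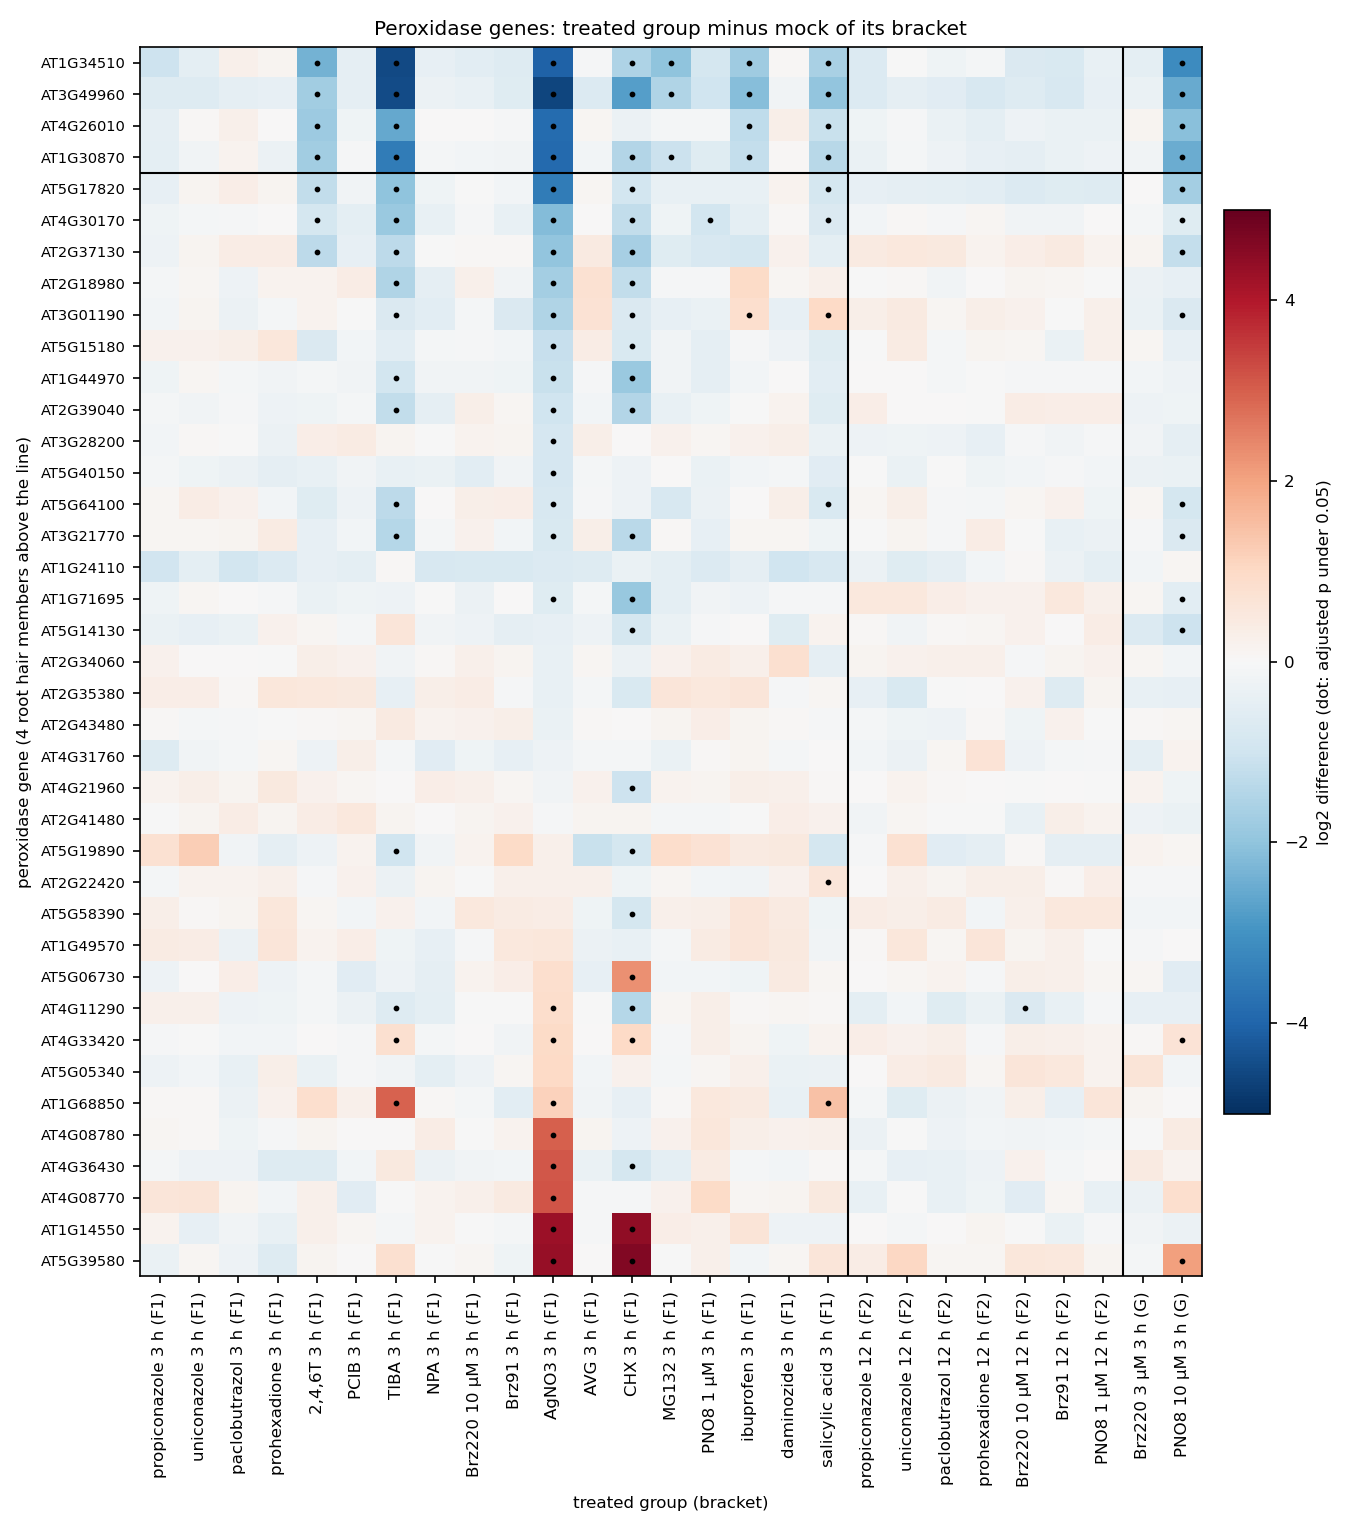
Log2 difference from the mock of the bracket for the 39 tested members (rows) in the 27 treated groups (columns), with blue for lower, red for higher and a dot for an adjusted p under 0.05; n = 2 arrays a group. The 4 root hair members stand above the line, the others are ordered by their difference with AgNO3, and most dots lie in the columns of AgNO3 (25), CHX (23), TIBA (17), PNO8 at 10 µM (14) and salicylic acid (10).

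The root hair members AT1G34510, AT3G49960, AT4G26010 and AT1G30870 moved together in most of the groups with calls. AT4G26010 has a known part in root hair growth. AT1G30870, AT1G34510 and AT3G49960 were each lower in 8 treated groups, and AT4G26010 in 6 of those 8. None of the 4 was called higher in any treated group. Not all of these calls held when an array was left out. With MG132, those of AT3G49960 and AT1G30870 are lost whichever of the 4 arrays is left out. AT3G49960 with 2,4,6T (-1.88 to -1.57 in such fits) and AT1G30870 with ibuprofen (-1.325 to -1.07) also lost their calls in most of them. The values of the 4 members in those 8 groups follow gene by gene. The groups were picked by these same calls, so arrays below mock there are no further support.

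AT1G34510 read 176 and 80.0 with AgNO3, 37.5 and 71.0 with TIBA, 307 and 1356 with 2,4,6T, and 1597 and 989 with CHX. It read 829.5 and 952 with MG132, 1261 and 925 with ibuprofen and 2048 and 674 with salicylic acid, against 5004 and 3135 in F1 mock. With 10 µM PNO8 the arrays read 302 and 251, against 3769.5 and 3108 in G mock. All arrays of these 8 treated groups lay below both arrays of their mock, and TIBA and AgNO3 gave the lowest. AT3G49960 read 11.5 and 12.9 with AgNO3, 20 and 25.7 with TIBA, 767 and 979 with 2,4,6T, and 753 and 141 with CHX. It read 948 and 1107 with MG132, 543 and 716 with ibuprofen and 1355 and 348 with salicylic acid, against 3116 and 3209 in F1 mock. With 10 µM PNO8 the arrays read 313 and 241, against 2059 and 2259 in G mock. Here too no treated array reached its mock. CHX replicate 2 and salicylic acid replicate 2 lay well below the other array of their groups.

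AT4G26010 read 839 and 841 with AgNO3, 2040.1 and 2411 with TIBA, 2211 and 6404 with 2,4,6T, and 12330.4 and 10174 with CHX. It read 12222 and 13413 with MG132, 5139 and 6040.2 with ibuprofen and 8506 and 4518 with salicylic acid, against 13750.4 and 13589.7 in F1 mock. With 10 µM PNO8 the arrays read 3058 and 2915, against 13441 and 13055 in G mock. All of these arrays lay below their mock, those with CHX and MG132 by little, and AgNO3 gave by far the lowest. AT1G30870 read 365 and 529.8 with AgNO3, 538 and 713 with TIBA, 1549 and 3614 with 2,4,6T, and 2959.5 and 2832 with CHX. It read 3758 and 3962 with MG132, 3195 and 3833 with ibuprofen and 5045 and 1806 with salicylic acid, against 8894 and 7547 in F1 mock. With 10 µM PNO8 the arrays read 1110.3 and 1282, against 6719 and 7690.5 in G mock. Again none of the treated arrays overlapped with mock. In 2,4,6T replicate 1 and salicylic acid replicate 2, each of the 4 genes was lower than on the other array of the group.

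**Figure D2:**
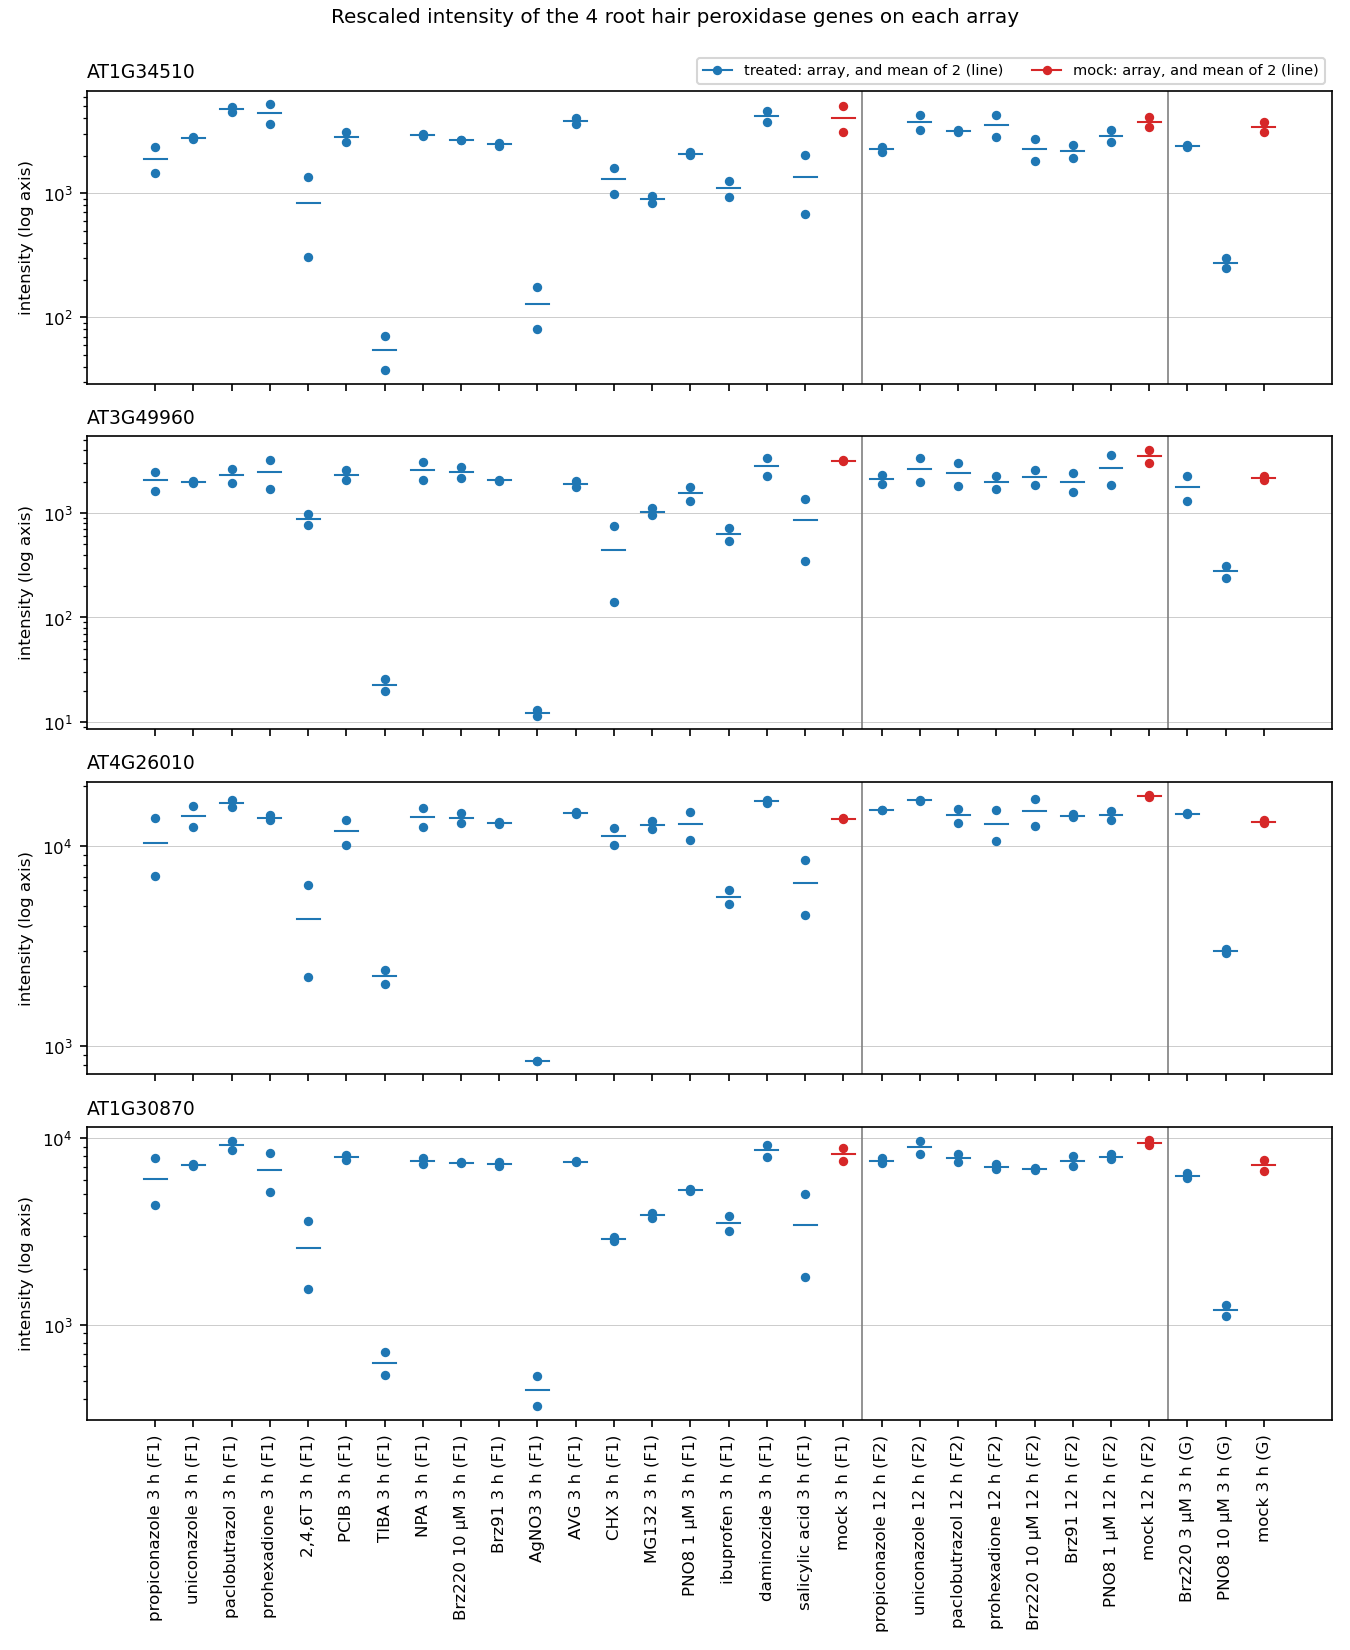
Rescaled intensity (log axis) of the 4 root hair members on each of the 60 arrays, 1 point an array, with the mean of the group as a line; treated groups in blue, the mock of each bracket in red at its right. The groups with AgNO3 and TIBA lie lowest in all 4 panels, at 11.5 and 12.9 with AgNO3 for AT3G49960 against 3116 and 3209 in F1 mock, while AT4G26010 with CHX lies near mock, at 12330.4 and 10174 against 13750.4 and 13589.7.

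The 8 groups with calls are those where at least 1 of the 4 members was called, each time lower. Values below 0 there thus follow largely from that choice. In these 8 groups the differences of the 4 members ran from -4.58 to -0.09, all below 0. In the other 19 treated groups they ran from -1.05, for AT1G34510 with propiconazole at 3 h, to 0.29, for AT4G26010 with daminozide. The median of these 76 values was -0.32 and 63 were below 0, but none was called, and the lowest adjusted p (limma) was 0.269. Those 76 values share 3 mock groups, so they are not separate observations.

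**Figure D3:**
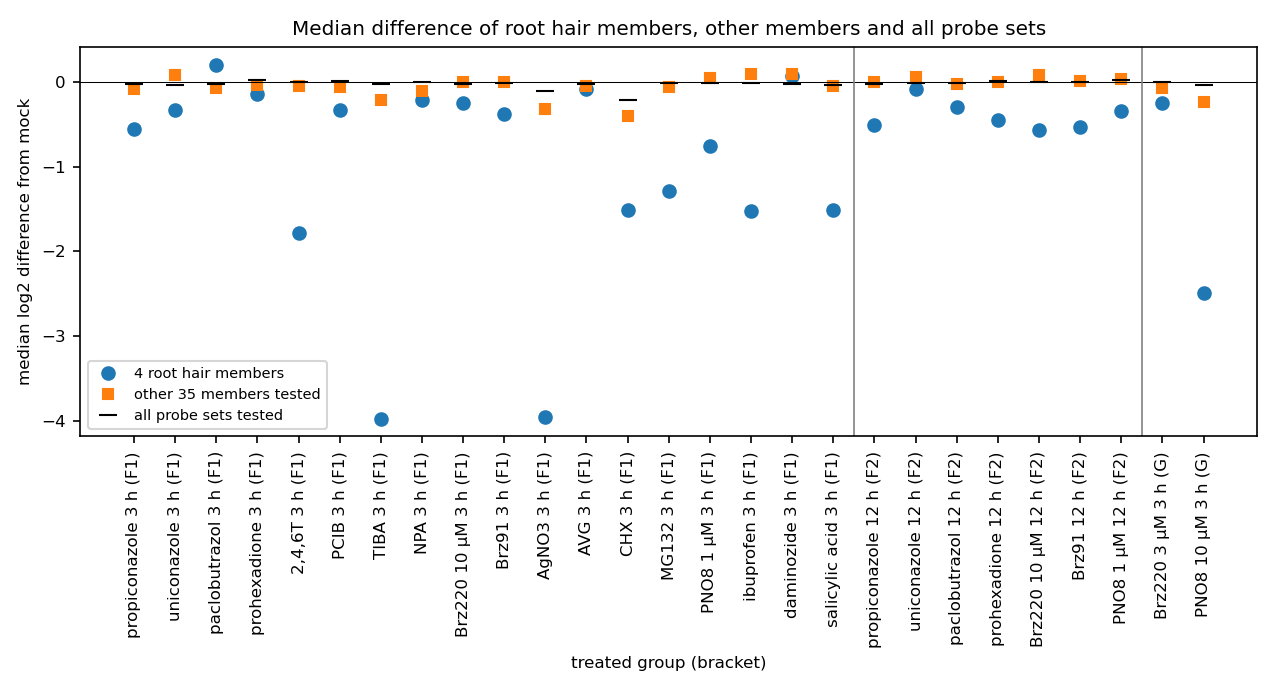
Median log2 difference from mock of the 4 root hair members (circles), the other 35 tested members (squares) and all 17312 probe sets tested (dashes) in each of the 27 treated groups. The root hair median is lowest with TIBA (-3.97) and AgNO3 (-3.96), where the other members lie at -0.21 and -0.32 and all probe sets at -0.02 and -0.11.

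AgNO3 gave the most calls of any treated group, 25 in all. With it 17 of 39 tested members were lower, where 13.9% of all probe sets tested were lower, and 8 were higher, where 10.8% were. All 4 root hair members fell: AT3G49960 (-4.58 ± 0.39, adjusted p = 4.75e-12), AT1G34510 (-4.04 ± 0.34, adjusted p = 3.6e-12), AT1G30870 (-3.88 ± 0.27, adjusted p = 3.14e-14) and AT4G26010 (-3.84 ± 0.27, adjusted p = 5.19e-14). AT5G17820, a target of the transcription factor UPB1, which sets where root cells stop dividing and begin to elongate, read 459.8 and 859 with AgNO3, against 9894 and 7305 in F1 mock (-3.51 ± 0.24, adjusted p = 2.36e-14). AT4G30170 read 1145 and 1319, against 6254 and 5562 (-2.15 ± 0.18, adjusted p = 2.74e-12). These 2 genes were thus also far below mock on both arrays. The other 11 that fell did so by 0.60 to 1.99, among them AT5G64100, which also has a reported part in root hair growth (-0.79 ± 0.24, adjusted p = 0.0143).

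AT5G39580, a peroxidase with a reported part in root hair growth, read 18151 and 18764 with AgNO3, against 589 and 1017 in F1 mock (4.36 ± 0.43, adjusted p = 1.71e-10). AT1G14550 read 6984 and 4205, against 210.3 and 118 (4.28 ± 0.32, adjusted p = 1.07e-13), and lay above the percentile of its array only with AgNO3, with CHX and on ibuprofen replicate 2. It was tested only because of those arrays, so its p-value here is no support. AT4G08770 (Prx37) read 12991 and 11434, against 1189 and 1334 (3.15 ± 0.29, adjusted p = 2.85e-11). In each of these 3, both AgNO3 arrays stood far above both mock arrays. Its neighbour in the TAIR10.1 gene table, AT4G08780, read 5463 and 3582, against 396 and 507 (2.99 ± 0.30, adjusted p = 1.47e-10). Whether either probe set also reads the other gene of the pair was not tested. AT4G36430 read 7273 and 8708, against 517 and 1245 (3.11 ± 0.30, adjusted p = 8.9e-11).

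Smaller rises with AgNO3 were those of AT1G68850, AT4G33420 and AT4G11290. AT1G68850 read 1854 and 661, against 415 and 454 in F1 mock (1.16 ± 0.35, adjusted p = 0.0113). Its 2 AgNO3 arrays differ widely, and the call is lost without AgNO3 replicate 1, where the difference is 0.49, or without F1 mock replicate 1. AT4G33420, an Arabidopsis peroxidase linked to vessel lignin, read 3303 and 2972, against 1645 and 1446 (0.97 ± 0.17, adjusted p = 2.75e-05). AT4G11290, another UPB1 target, read 5226 and 4889, against 2669.5 and 2776 (0.86 ± 0.16, adjusted p = 6.12e-05). The 2 UPB1 targets tested thus moved in opposite directions with AgNO3.

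CHX lowered 19 of 39 tested members, where 33.6% of all probe sets tested were lower, and raised 4, where 18.2% were higher. The median of all probe sets tested was -0.21 with CHX. The differences and p-values given here are not corrected for that shift. The root hair members that fell were AT3G49960 (-2.76 ± 0.39, adjusted p = 1.44e-07), AT1G34510 (-1.56 ± 0.34, adjusted p = 0.000192) and AT1G30870 (-1.46 ± 0.27, adjusted p = 1.62e-05). AT4G26010 stood at -0.28 ± 0.27 (95% interval -0.84 to 0.27, adjusted p = 0.407). AT1G71695 read 2035 and 1298 with CHX, against 7494 and 5322 in F1 mock (-1.88 ± 0.17, adjusted p = 1.38e-12). AT1G44970, known from the anther tapetum, read 172 and 404, against 1084 and 1568 (-1.85 ± 0.22, adjusted p = 1.74e-09). AT2G37130 (-1.66 ± 0.33, adjusted p = 5.24e-05) and the UPB1 target AT5G17820 (-0.90 ± 0.24, adjusted p = 0.00175) fell as well. In these 4 genes the arrays of the groups are apart.

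AT4G11290, which rose with AgNO3, fell with CHX, where it read 785 and 1097, against 2669.5 and 2776 in F1 mock (-1.43 ± 0.16, adjusted p = 7.99e-10). PRXR1 (AT4G21960) fell with CHX and was called in no other treated group. It read 11627 and 9785 with CHX, against 22117 and 21705 (-1.03 ± 0.17, adjusted p = 3.87e-06). AT4G36430 read 271 and 544, against 517 and 1245, so the groups overlap although the gene is called lower (-0.87 ± 0.30, adjusted p = 0.0147), and the call is lost without CHX replicate 1 or F1 mock replicate 2.

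The steepest rises with CHX were again those of AT5G39580 and AT1G14550. AT5G39580 read 19258 and 26179.6 with CHX, against 589 and 1017 in F1 mock (4.64 ± 0.43, adjusted p = 6.19e-12). AT1G14550 read 6315 and 5656, against 210.3 and 118 (4.42 ± 0.32, adjusted p = 3.03e-15). AT5G06730 read 1241 and 705, against 67.0 and 125 (2.28 ± 0.38, adjusted p = 3.44e-06), and AgNO3 replicate 1 was the only array without CHX on which it lay above the percentile. AT4G33420 read 3329 and 3051, against 1645 and 1446 (0.99 ± 0.17, adjusted p = 5.79e-06). All 4 were above mock on both CHX arrays. AT5G06730 was tested only because of its CHX arrays, and AT1G14550 only because of its AgNO3 and CHX arrays. Their rises there were thus set by the filter, and their p-values and place among the 4 are no support.

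**Figure D4:**
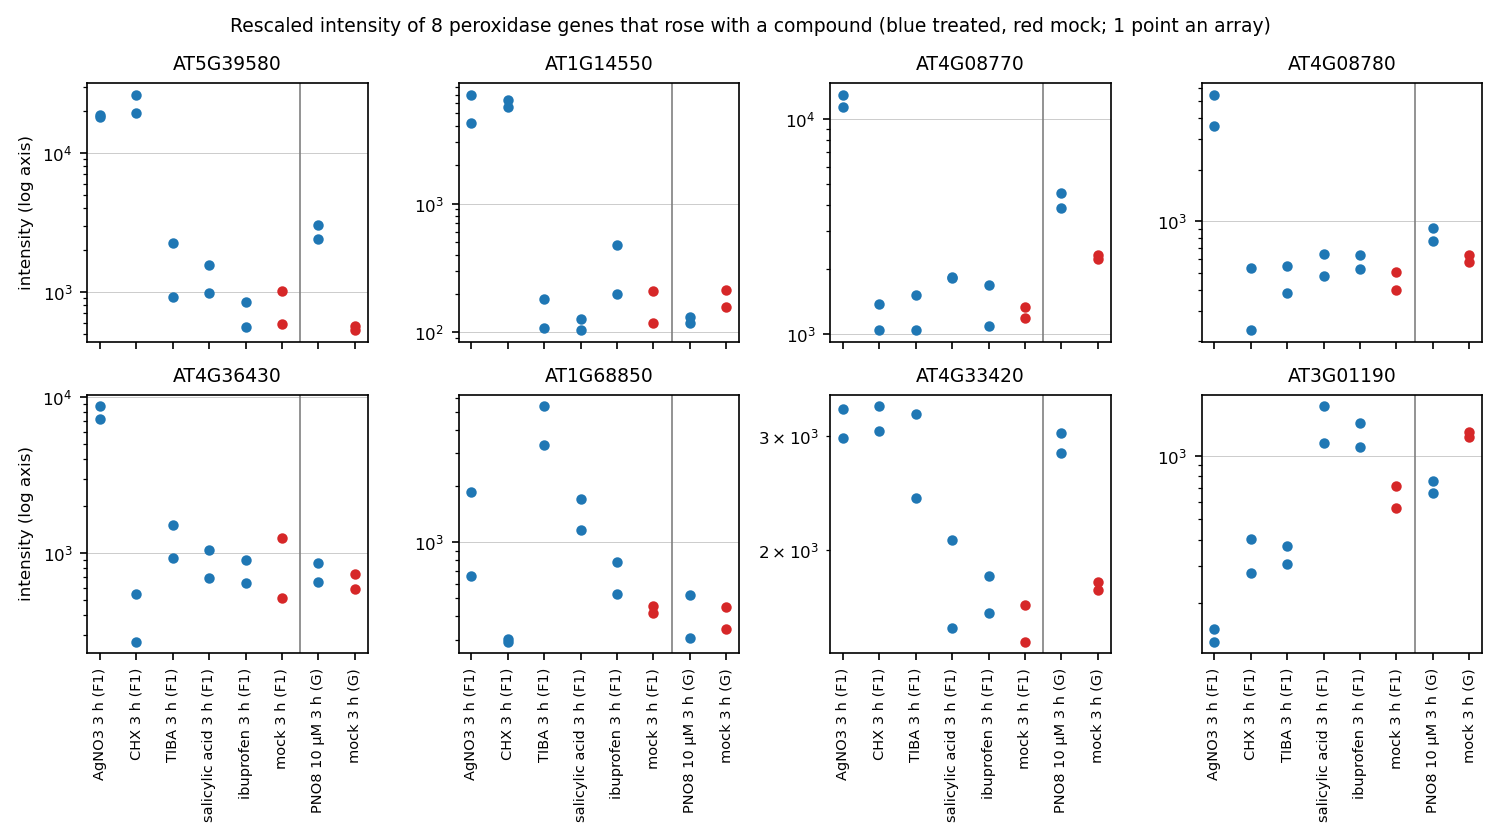
Rescaled intensity (log axis, its range set for each gene) of 8 members that rose with some compound, 1 point an array, with treated groups in blue and the mock of each bracket in red at its right. AT5G39580 and AT1G14550 are high with both AgNO3 and CHX, AT4G08770, AT4G08780 and AT4G36430 are highest with AgNO3, and AT1G68850 is highest with TIBA, at 5381 and 3317 against 415 and 454 in F1 mock.

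TIBA lowered 15 of 39 tested members, where 6.12% of all probe sets tested were lower, and raised 2, where 5.75% were higher. The 4 root hair members fell: AT1G34510 (-4.51 ± 0.34, adjusted p = 5.09e-13), AT3G49960 (-4.47 ± 0.39, adjusted p = 2.22e-11), AT1G30870 (-3.48 ± 0.27, adjusted p = 8.41e-13) and AT4G26010 (-2.56 ± 0.27, adjusted p = 2.54e-09). AT5G17820 read 1499.9 and 2712 with TIBA, against 9894 and 7305 in F1 mock (-2.01 ± 0.24, adjusted p = 3.89e-08). AT4G30170 read 1351 and 1706, against 6254 and 5562 (-1.87 ± 0.18, adjusted p = 2.2e-10). Neither overlaps with mock. AT5G64100 fell as well (-1.29 ± 0.24, adjusted p = 0.000144).

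AT1G68850 rose with TIBA, where it read 5381 and 3317, against 415 and 454 in F1 mock (2.96 ± 0.35, adjusted p = 2.24e-08). AT4G33420 read 3234 and 2402, against 1645 and 1446 (0.81 ± 0.17, adjusted p = 0.000754), and its call is lost without TIBA replicate 1. AT4G11290 fell with TIBA, where it read 1715 and 1718, against 2669.5 and 2776 (-0.63 ± 0.16, adjusted p = 0.0059). It was thus lower with TIBA and CHX and higher with AgNO3.

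NPA, the other auxin transport inhibitor, was set against TIBA at the same dose and time. TIBA was lower than NPA for 12 of 39 tested members, where 4.39% of all probe sets tested were lower, and higher for 3, where 5.25% were. AT1G34510 read 37.5 and 71.0 with TIBA, against 2914 and 2976 with NPA (-4.10 ± 0.34, adjusted p = 9.64e-12), and AT3G49960 read 20 and 25.7, against 3089 and 2088 (-4.17 ± 0.39, adjusted p = 1.7e-10). AT1G30870 (-3.36 ± 0.27, adjusted p = 3.58e-12), AT4G26010 (-2.58 ± 0.27, adjusted p = 2.3e-09), AT5G17820 (-1.80 ± 0.24, adjusted p = 4.13e-07) and AT4G30170 (-1.51 ± 0.18, adjusted p = 3.97e-08) were also lower with TIBA. AT1G68850 (2.91 ± 0.35, adjusted p = 3.83e-08), AT4G33420 (0.90 ± 0.17, adjusted p = 0.0002) and AT1G24110 (0.86 ± 0.29, adjusted p = 0.0477) were higher with TIBA. AT1G24110 lay above the percentile only on TIBA replicate 2 and F1 mock replicate 2, and its call is lost in 3 of the 4 fits that leave an array out. The gene was tested only because of those 2 arrays, so its p-value and place among the 3 are no support. Against F1 mock, NPA had no member called by limma, with 3 of 39 at an unadjusted p under 0.05. Of the 17312 probe sets tested, 1287 had such a p with NPA.

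PNO8 at 10 µM lowered 12 of 39 tested members, where 5.96% of all probe sets tested were lower, and raised 2, where 6.23% were higher. The root hair members fell: AT1G34510 (-3.14 ± 0.34, adjusted p = 4.56e-09), AT3G49960 (-2.51 ± 0.39, adjusted p = 7.92e-06), AT1G30870 (-2.47 ± 0.27, adjusted p = 4.66e-09) and AT4G26010 (-2.10 ± 0.27, adjusted p = 2.08e-07). AT5G17820 read 2411 and 2677 with 10 µM PNO8, against 8907 and 8365 in G mock (-1.72 ± 0.24, adjusted p = 1.04e-06), and AT2G37130 read 4546 and 3759, against 9673 and 9598 (-1.20 ± 0.33, adjusted p = 0.0117). AT5G39580 rose and read 2418 and 3036, against 531 and 569 (2.07 ± 0.43, adjusted p = 0.000656), as did AT4G33420 with 2819 and 3024, against 1738 and 1786 (0.69 ± 0.17, adjusted p = 0.00448). AT5G64100 fell (-0.87 ± 0.24, adjusted p = 0.0128). The arrays of these groups do not overlap. The total of 14 drops to 9 without G mock replicate 1, 7 without G mock replicate 2 and 8 without PNO8 replicate 2. The 4 root hair members, AT5G17820 and AT5G39580 kept their calls in each of those fits.

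At 1 µM and 3 h, PNO8 lowered only AT4G30170, where 0.503% of all probe sets tested were lower and 1.04% higher. It read 3435 and 2678 with PNO8, against 6254 and 5562 in F1 mock (-0.93 ± 0.18, adjusted p = 0.00149), and the call is lost without F1 mock replicate 1 or PNO8 replicate 2. The response at 10 µM minus that at 1 µM, each against its own mock, was lower for 4 members, where 0.716% of all probe sets tested were lower and 1.45% higher. These were AT1G34510 (-2.25 ± 0.49, adjusted p = 0.00521), AT4G26010 (-1.99 ± 0.39, adjusted p = 0.00183), AT1G30870 (-1.85 ± 0.38, adjusted p = 0.00351) and AT5G17820 (-1.36 ± 0.34, adjusted p = 0.0215). AT3G49960 stood at -1.51 ± 0.56 (95% interval -2.64 to -0.38, adjusted p = 0.182). Dose and bracket cannot be told apart here. The call of AT5G17820 was kept in only 2 of the 8 fits that leave an array out, with differences of -1.61 to -1.10. That of AT1G34510 was kept in 7 of the 8 and lost without F1 mock replicate 2, with differences of -2.58 to -1.92.

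**Figure D5:**
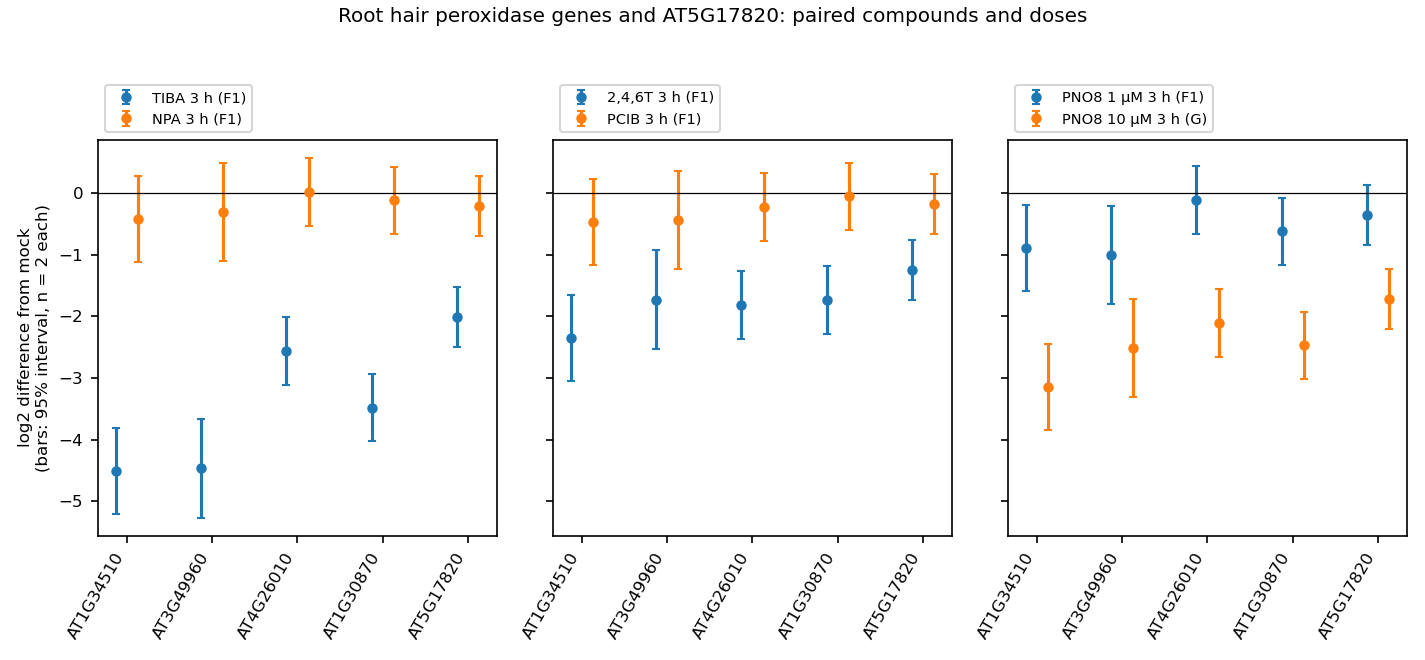
Log2 difference from the mock of the bracket with its 95% interval (n = 2 arrays each) for the 4 root hair members and AT5G17820, for TIBA beside NPA, 2,4,6T beside PCIB, and PNO8 at 1 µM (bracket F1) beside 10 µM (bracket G). AT4G26010 stands at -2.56 with TIBA and 0.02 with NPA, at -1.82 with 2,4,6T and -0.22 with PCIB, and at -0.11 with 1 µM and -2.10 with 10 µM PNO8.

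2,4,6T lowered 7 of 39 tested members, where 0.705% of all probe sets tested were lower; 0.797% were higher. They were AT1G34510 (-2.35 ± 0.34, adjusted p = 2.02e-05), AT4G26010 (-1.82 ± 0.27, adjusted p = 3.14e-05), AT1G30870 (-1.73 ± 0.27, adjusted p = 5.88e-05), AT3G49960 (-1.73 ± 0.39, adjusted p = 0.0107), AT2G37130 (-1.30 ± 0.33, adjusted p = 0.0302), AT5G17820 (-1.24 ± 0.24, adjusted p = 0.00177) and AT4G30170 (-0.90 ± 0.18, adjusted p = 0.00283). AT5G17820 read 2727 and 4532 with 2,4,6T, against 9894 and 7305 in F1 mock, and AT2G37130 read 2892 and 6097, against 9339.5 and 11969. Both groups lie apart, with replicate 1 of 2,4,6T the lower array. Without that array 1 member, AT1G34510, is called, and without F1 mock replicate 1 there are 3.

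PCIB, given at the same dose and time, had no member called against F1 mock. With it 2 of 39 members had an unadjusted p under 0.05 (limma), as did 930 of the 17312 probe sets tested. Against PCIB, 2,4,6T was lower for 4 members, where 0.162% of all probe sets tested were lower and 0.0982% higher. AT1G34510 read 307 and 1356 with 2,4,6T, against 3113 and 2589 with PCIB (-1.89 ± 0.34, adjusted p = 0.0045). AT1G30870 (-1.68 ± 0.27, adjusted p = 0.00115), AT4G26010 (-1.60 ± 0.27, adjusted p = 0.00293) and AT5G17820 (-1.06 ± 0.24, adjusted p = 0.0388) were the others. AT3G49960 read 767 and 979, against 2562 and 2074, apart on all arrays but not called (-1.29 ± 0.39, 95% interval -2.09 to -0.49, adjusted p = 0.309). The count is 0 without 2,4,6T replicate 1 and 1 without PCIB replicate 1.

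Salicylic acid, a plant defence hormone, lowered 7 of 39 tested members, where 3.65% of all probe sets tested were lower, and raised 3, where 4.68% were higher. The 4 root hair members fell, AT3G49960 (-1.97 ± 0.39, adjusted p = 0.00059), AT1G34510 (-1.63 ± 0.34, adjusted p = 0.00109), AT1G30870 (-1.40 ± 0.27, adjusted p = 0.000397) and AT4G26010 (-1.12 ± 0.27, adjusted p = 0.00536), and so did AT5G17820 (-0.87 ± 0.24, adjusted p = 0.0164), AT5G64100 (-0.77 ± 0.24, adjusted p = 0.041) and AT4G30170 (-0.71 ± 0.18, adjusted p = 0.00777). AT1G68850 rose and read 1159 and 1703, against 415 and 454 in F1 mock (1.45 ± 0.35, adjusted p = 0.00457). AT3G01190 read 1145 and 1718, against 722 and 565 (1.00 ± 0.22, adjusted p = 0.00212). AT2G22420, a peroxidase tied to lignified tissue, read 736 and 715, against 452 and 424 (0.59 ± 0.18, adjusted p = 0.0345). The treated and mock arrays of these 3 do not overlap, but the call of AT2G22420 is lost when any of the 4 arrays is left out. All 10 calls are lost without salicylic acid replicate 2, and 3 are left without F1 mock replicate 1.

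Ibuprofen lowered the 4 root hair members, where 0.676% of all probe sets tested were lower, and raised AT3G01190, where 0.635% were higher. The falls were those of AT3G49960 (-2.13 ± 0.39, adjusted p = 0.00131), AT1G34510 (-1.76 ± 0.34, adjusted p = 0.00265), AT4G26010 (-1.28 ± 0.27, adjusted p = 0.00825) and AT1G30870 (-1.20 ± 0.27, adjusted p = 0.0132). AT3G01190 read 1433 and 1097 with ibuprofen, against 722 and 565 in F1 mock (0.85 ± 0.22, adjusted p = 0.0412), and the call is lost in each fit that leaves an array out. The count of 5 drops to 1 without F1 mock replicate 1 and to 2 without either ibuprofen array. AT3G01190 fell with AgNO3 (-1.52 ± 0.22, adjusted p = 9.02e-07), TIBA (-0.72 ± 0.22, adjusted p = 0.0253), CHX (-0.73 ± 0.22, adjusted p = 0.00595) and 10 µM PNO8 (-0.73 ± 0.22, adjusted p = 0.0231), giving calls in both directions. Its call with PNO8 is lost when any of the 4 arrays is left out, and its call with TIBA in 3 of 4 such fits.

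Set against ibuprofen at the same dose and time, salicylic acid was higher for AT2G22420, where 4.07% of all probe sets tested were higher. It was lower for 3 members, where 2.07% were lower. AT2G22420 read 736 and 715 with salicylic acid, against 398 and 346 with ibuprofen (0.78 ± 0.18, adjusted p = 0.00505). AT5G19890 read 457 and 356, against 1460.4 and 974 (-1.32 ± 0.33, adjusted p = 0.00785). AT5G58390, whose call is lost when any of the 4 arrays is left out (-0.83 ± 0.23, adjusted p = 0.0224), and AT5G64100 (-0.80 ± 0.24, adjusted p = 0.0406) were lower too. The root hair members were not called between these compounds, with 95% intervals of -0.57 to 0.82 for AT1G34510, -0.64 to 0.96 for AT3G49960, -0.40 to 0.71 for AT4G26010 and -0.75 to 0.35 for AT1G30870. Of these 4 calls, only that of AT2G22420 holds without ibuprofen replicate 1 or without salicylic acid replicate 2. Without ibuprofen replicate 2, only that of AT5G19890 does.

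MG132 lowered 3 members, where 0.624% of all probe sets tested were lower; 0.381% were higher. They were AT1G34510 (-2.01 ± 0.34, adjusted p = 0.000506), AT3G49960 (-1.51 ± 0.39, adjusted p = 0.0472) and AT1G30870 (-1.06 ± 0.27, adjusted p = 0.0423), while AT4G26010 stood at -0.09 ± 0.27 (95% interval -0.65 to 0.46, adjusted p = 0.962). The calls of AT3G49960 and AT1G30870 are lost when any of the 4 arrays is left out, and that of AT1G34510 without F1 mock replicate 1. Brz220 at 10 µM and 12 h lowered AT4G11290, where 0.26% of all probe sets tested were lower and 0.208% higher. It read 1664 and 1571 with Brz220, against 2890.4 and 2663 in F2 mock (-0.74 ± 0.16, adjusted p = 0.0184), and the call is lost when any of the 4 arrays is left out.

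Prohexadione at 3 h had 8 of 39 members at an unadjusted p under 0.05 (limma), where 1699 of the 17312 probe sets tested were. That was the most members in any treated group without a call. Uniconazole at 12 h had 7 members, where 2264 probe sets were, and 3 µM Brz220 had 2, where 542 were. Whether members exceed such background counts was not tested. Limma found 1 to 8 members at that threshold in each of the 17 treated groups without a call. These are propiconazole, uniconazole, paclobutrazol, prohexadione and Brz91 at both times, Brz220 at 10 µM and 3 h and at 3 µM, PNO8 at 1 µM and 12 h, PCIB, NPA, AVG and daminozide. Of all probe sets tested, the share called in either direction at 3 h was 0.104% with propiconazole, 0.052% with uniconazole, 0.0231% with paclobutrazol, 0.0809% with prohexadione, 0.139% with PCIB and 0.144% with NPA. It was 0.0693% with 10 µM Brz220, 0.0347% with 3 µM Brz220, 0.15% with Brz91, 0.347% with AVG and 0% with daminozide, where 1195 probe sets had an unadjusted p under 0.05. At 12 h it was 0.289% with propiconazole, 1.01% with uniconazole, 0.0751% with paclobutrazol, 0.0462% with prohexadione, 0.225% with Brz91 and 0.052% with 1 µM PNO8. At most 1.01% of all probe sets passed in any of these groups, so no call for a member is no result about the family.

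The response at 12 h minus that at 3 h gave no member by limma for any of the 7 compounds with both times. In that difference 1 to 3 of 39 members had an unadjusted p under 0.05. Of the 17312 probe sets tested, 534 (paclobutrazol) to 1466 (1 µM PNO8) had such a p in that difference. The share of all probe sets called in that difference was 0.468% with 1 µM PNO8, 0.0289% with propiconazole, 0.0116% with uniconazole, 0.00578% with Brz220 and with Brz91, and 0% with paclobutrazol and with prohexadione. AT4G11290, called lower with Brz220 at 12 h, differed between the times by -0.73 ± 0.23 (95% interval -1.19 to -0.26, adjusted p = 0.959). Time and bracket cannot be told apart in these differences. The response to Brz220 at 10 µM minus that at 3 µM also gave no member by limma, with 0 at an unadjusted p under 0.05, where 0% of all probe sets were called and 691 had an unadjusted p under 0.05.

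The mocks of brackets G and F1, both of 3 h, differed for 2 members, where 3.22% of all probe sets tested were higher in G and 1.84% lower. AT3G01190 read 1299 and 1232 in G mock, against 722 and 565 in F1 mock (0.86 ± 0.22, adjusted p = 0.0179). AT5G58390 read 1346 and 1671, against 698 and 685 (0.99 ± 0.23, adjusted p = 0.00886). Without F1 mock replicate 2 or G mock replicate 2 the count is 0, and without G mock replicate 1 it is 1. The handling of the brackets cannot be told apart from their mocks.

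Genes of root hairs that are no peroxidases were called lower in each of the 8 groups with calls for the root hair members, and in no other treated group. Their list was chosen with earlier results of these data known, so this match of groups is no support. Of 35 listed, 5 were tested: EXPA7 and EXPA18, expansins that loosen the wall, the wall cellulase GH9C1, AT3G07070 and AT5G04960. With AgNO3 all 5 were lower (median -2.61, where all probe sets stood at -0.11), and with TIBA all 5 (median -2.28, against -0.02). AT5G04960 fell by the most of the 5 with AgNO3 (-3.51 ± 0.26, adjusted p = 1.49e-13) and with TIBA (-2.86 ± 0.26, adjusted p = 6.2e-11). CHX, 2,4,6T, salicylic acid and 10 µM PNO8 each lowered 4 of the 5, and MG132 and ibuprofen 2. Of all probe sets tested, 13.9% were lower with AgNO3, 6.12% with TIBA, 33.6% with CHX and 0.705% with 2,4,6T. The share was 3.65% with salicylic acid, 5.96% with 10 µM PNO8, 0.624% with MG132 and 0.676% with ibuprofen. The part of these 5 genes in the fall of the root hair members was not tested.

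Of 20 listed extensin genes, whose products peroxidases cross-link, 9 were tested and none rose. AgNO3 lowered 6 of the 9, TIBA 5, 10 µM PNO8 4, 2,4,6T 2 and CHX 1. In the same order, 13.9%, 6.12%, 5.96%, 0.705% and 33.6% of all probe sets tested were lower, so 1 of 9 with CHX is below that share. AT3G54580 (-3.43 ± 0.41, adjusted p = 1.49e-08), AT5G06630 (-3.15 ± 0.24, adjusted p = 2.83e-13) and HRGP1 (-2.50 ± 0.26, adjusted p = 3.59e-10) fell with AgNO3. Of the NADPH oxidases, which make the superoxide that yields hydrogen peroxide, 2 of 10 listed were tested. AT4G25090 fell with AgNO3 (-2.03 ± 0.36, adjusted p = 2.09e-05) and TIBA (-1.88 ± 0.36, adjusted p = 0.000139), while AT1G19230 was not called in any treated group. Of 21 listed genes of monolignol synthesis and laccases, CCR2 and HCT were tested. CCR2, a cinnamoyl-CoA reductase, rose with CHX (5.23 ± 0.35, adjusted p = 3.16e-16), AgNO3 (3.54 ± 0.35, adjusted p = 1.26e-10) and TIBA (1.32 ± 0.35, adjusted p = 0.00702), and HCT rose with AgNO3 (0.76 ± 0.13, adjusted p = 1.11e-05), TIBA (0.39 ± 0.13, adjusted p = 0.0366) and ibuprofen (0.50 ± 0.13, adjusted p = 0.0364) but fell with CHX (-2.93 ± 0.13, adjusted p = 9.11e-22).

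Of 6 peroxidases listed for lignin, AT2G22420, PRX25 and PRX52 were tested, and the salicylic acid rise of AT2G22420 was their sole call in a treated group. That list does not hold AT4G33420, linked to vessel lignin and called higher in 4 treated groups. PRX52 read 737 and 346 with AgNO3, against 166 and 232 in F1 mock, apart on all arrays but not called (0.98 ± 0.42, adjusted p = 0.083). It passed the filter only through its AgNO3 arrays and Brz91 replicate 1 at 12 h, so that gap is no support. Of 3 listed for reproductive tissue or seed, only AT1G44970 was tested, and it fell with CHX, with AgNO3 (-1.10 ± 0.22, adjusted p = 0.000116) and with TIBA (-0.93 ± 0.22, adjusted p = 0.00197). Of 19 listed genes of the Casparian strip and suberin, the barriers of the endodermis, AT1G61590 and GSO1 were tested. AT1G61590 fell with TIBA (-2.08 ± 0.31, adjusted p = 2.78e-06), CHX (-1.57 ± 0.31, adjusted p = 4.44e-05) and AgNO3 (-1.13 ± 0.31, adjusted p = 0.00542). GSO1, a receptor kinase needed for an unbroken Casparian strip, fell with TIBA (-0.77 ± 0.21, adjusted p = 0.00872) and rose with CHX (0.80 ± 0.21, adjusted p = 0.00127). Of 19 listed enzymes that handle reactive oxygen, the chloroplast ascorbate peroxidases TAPX and SAPX were tested. Both fell with CHX alone among the treated groups, where 33.6% of all probe sets tested were lower.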

How the data were processed

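Per the labels, total RNA of seedlings was hybridised to ATH1 arrays, 60 in all. The deposited intensity values are on a linear scale and come from MAS5, which the authors ran per the submitters' processing notes (version not given in the sources used here). In the deposited table the 2% trimmed mean was the same on all arrays of 1 bracket and replicate number but not between them: replicates 1 and 2 had 1523 and 1220 in bracket F1, 1020 and 1441 in bracket F2, and 1360 and 1267 in bracket G. Each array was therefore rescaled to a trimmed mean of 1313.4.

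limma 3.58.1 in R 4.3.3 fitted log2(intensity + 125.6), with a pseudocount set at the 20th percentile of an array (median of all arrays), with 1 mean per group over all 60 arrays, an intensity trend and 30 residual degrees of freedom. A check on simulated data came first. It drew independent normal values with the fitted spreads, so it could not test whether these arrays meet the assumptions of the fit. The 40 comparisons were 27 treated groups against mock, 3 between compounds, 7 between times, 2 between doses and 1 between mocks. The median 95% half-width of a difference from mock was 0.45 log2 units, and the number of arrays limits this precision.

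Probe sets were named from the platform annotation, with 13513 naming exactly 1 gene and 503 several; 13484 were found in RefSeq's TAIR10.1 table, which served for names and neighbours. The members and lists were chosen with earlier results of these data known. Named were all called members where 10 or fewer, otherwise the 6 with the largest difference in each direction, the root hair members throughout, members with a listed role, and up to 4 called genes of other lists a comparison; with AgNO3, CHX and TIBA more of these are named, chosen after their values were seen, and the brightest and dimmest members were not set against each other because levels of different probe sets are not comparable. Alternatives were the deposited intensities without rescaling, quantile normalization, a pseudocount of 16, no filter, the replicate block, and each array left out.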

Additional observations from a re-analysis of the deposited data

Results flagged for a closer look

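The response to PNO8 at 10 µM minus the response at 1 µM, each against its own mock, differed by limma's test of the difference for 4 members. The values were -2.25 for AT1G34510, -1.99 for AT4G26010, -1.85 for AT1G30870 and -1.36 for AT5G17820, so each was further below mock at 10 µM. The call of AT5G17820 was kept in only 2 of the 8 fits that leave an array out. The doses were given in different brackets, and dose and bracket cannot be told apart.

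The comparisons above leave out probe sets that name 2 genes and probe sets that stayed dim, and both hold a signal above mock with AgNO3. The probe set shared by AT4G37530 and AT4G37520 read 6707 and 3262 with AgNO3, against 1847 and 990.1 in F1 mock (1.70 ± 0.27, adjusted p = 3.63e-06), and which of the genes it reads cannot be told apart. The same probe set fell with CHX (-0.81 ± 0.27, adjusted p = 0.0106). The probe set shared by AT2G38390 and AT2G38380 fell with TIBA (-1.60 ± 0.25, adjusted p = 5.14e-06), AgNO3 (-1.08 ± 0.25, adjusted p = 0.000779) and CHX (-3.34 ± 0.25, adjusted p = 7.6e-15). AT5G19880, left out as dim, read 497.4 and 276 with AgNO3, against 109 and 69.5 in F1 mock (1.23, adjusted p = 0.012 by limma without the filter).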

How the results depend on the processing

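The alternatives were run on the 135 calls of members in all comparisons and on AT4G26010 with CHX and with MG132, and none of these differences turned its sign; other uncalled differences were not rerun. Of the 135 calls, 46 were lost without rescaling, 7 without the filter, 4 with a pseudocount of 16, 2 with quantile normalization and 1 with the replicate block, that of AT1G24110 for TIBA minus NPA (adjusted p = 0.0508). Leaving out an array lost a call 158 times. The cause was not tested, except that an array left out means fewer samples.

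Without rescaling, the counts of called members became 4 with 2,4,6T, 1 with MG132, 0 with 1 µM PNO8 at 3 h, 7 with 10 µM PNO8, 2 with ibuprofen, 5 with salicylic acid and 0 with Brz220 at 12 h. Between compounds they became 2 for 2,4,6T minus PCIB and 1 for salicylic acid minus ibuprofen, with 2 for the PNO8 doses and 0 for the mocks. Without the filter, MG132 had 1. Replicate numbers were not taken as pairs in the main fit. Same-numbered arrays deviated together weakly, with a median correlation of deviations of 0.14 in F1, 0.17 in F2 and 0.01 in G. They did not do so in every pair of groups (lowest -0.11 in F1, -0.06 in F2 and -0.01 in G). What same-numbered arrays share thus stays in the spread of the main fit. The median residual standard deviation was 0.2255 in the main fit and 0.2108 with the replicate block. With the replicate block, uniconazole at 12 h had 1 (AT5G39580, where 1.41% of all probe sets were higher), 1 µM PNO8 at 3 h had 2 and its response at 12 h minus 3 h had 1; the block moved no other count of members by over 1.5 times.

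Leaving out each array in turn gave 1 to 7 members with 2,4,6T, 12 to 15 with TIBA, 21 to 25 with AgNO3, 18 to 22 with CHX, 0 to 2 with MG132, 7 to 10 with 10 µM PNO8, 0 to 1 with 1 µM PNO8, 1 to 4 with ibuprofen, 0 to 10 with salicylic acid and 0 in all fits with Brz220 at 12 h. It gave 0 to 4 for 2,4,6T minus PCIB, 11 to 14 for TIBA minus NPA, 1 to 4 for salicylic acid minus ibuprofen, 2 to 4 for the PNO8 doses, 0 to 2 for the mocks and 0 to 1 for 1 µM PNO8 at 12 h minus 3 h. A lone array left in a group is assumed to vary like the other groups.

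The balance of calls over all probe sets also moved without rescaling. The share that was higher was 53.1% and, without rescaling, 68.8% with 2,4,6T, 48.4% and 59.6% with TIBA, 44.4% and 55.6% with Brz220 at 12 h, 43.7% and 56.9% with AgNO3, 37.9% and 61.8% with MG132, 67.4% and 86.3% with 1 µM PNO8 at 3 h, 51.1% and 74.4% with 10 µM PNO8, 48.5% and 64.3% with ibuprofen, and 56.2% and 80.0% with salicylic acid. It was 54.5% and 69.8% for TIBA minus NPA, 66.2% and 84.1% for salicylic acid minus ibuprofen, 66.9% and 85.1% for the PNO8 doses, and 63.6% and 79.8% for the mocks, where quantile normalization gave 52.7%. The share moved less with CHX (35.1% and 41.3%) and for 2,4,6T minus PCIB (37.8% and 41.7%).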
